A study of Homo sapiens with 12 samples.

Results

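The genes described here are 46 heat-shock proteins, HSP90 cochaperones and chaperonin subunits. They were listed by name for their role in protein folding in the cytosol and in mitochondria, with earlier results of these data known. Of the 46, 41 had a probe set that named them alone and were measured among 19775 genes in all. AHSA1 and HSF2 were named by no probe set in the annotation used, and HSPA8, TCP1 and PFDN6 only by probe sets that also named other genes, so these 5 were not analysed here. Where several probe sets named a gene, the brightest by its mean over the 12 arrays was taken, a choice that did not use the response to treatment.

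RNA was hybridised to 12 Affymetrix arrays, on which a gene is read by sets of short probes. Mino, Rec-1 and SP-49 are human cell lines of mantle cell lymphoma, a cancer of B lymphocytes. Cells of each line received compound E at 1 µM or only its solvent, 0.1% DMSO, called mock, and were taken at 24 h, with 2 arrays for each of the 6 groups. Serum made up 15% of the medium of Mino and 10% of that of Rec-1 and of SP-49, so it goes with the line. Compound E inhibits gamma-secretase, the protease complex that releases the active intracellular part of NOTCH receptors. The labels do not say whether the arrays of a group came from separate cultures, so p-values measure the spread between these arrays, which may be technical. The comparison asks which genes respond to the inhibitor in each line, and here how far the folding machinery is among them.

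Molecular chaperones bind proteins that are not fully folded. HSP70 proteins, guided by J-domain proteins and reset by nucleotide exchange factors, hold short unfolded stretches and can pass clients to HSP90 through the linker STIP1, after which cochaperones such as FKBP4 and PTGES3 steer the HSP90 cycle. In the cytosol prefoldin hands actin, tubulin and other clients to the ring-shaped chaperonin TRiC, while mitochondria have a set of their own, with TRAP1 for HSP90, HSPA9 for HSP70 and the chaperonin pair HSPD1 and HSPE1. HSF1 is the transcription factor that raises many of these genes under heat or other protein-damaging stress. Many fast-growing tumour cells, lymphoma cells among them, carry high levels of chaperones.

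All levels are log2 values as deposited, so a difference of 1 is a factor of 2, and differences are given as inhibitor minus mock unless stated. The NOTCH target HES1 read 5.86 and 5.67 on the Rec-1 mock arrays and 2.23 and 1.7 on the inhibitor arrays, and it read 6.11 and 5.77 on the SP-49 mock arrays and 2.53 and 2.33 on the inhibitor arrays. In Mino its level was 1.69 and 2.0 without and 1.82 and 1.73 with inhibitor. HES1 was therefore low with and without the drug in Mino and fell in the other lines. MYC, the growth transcription factor, read 8.32 and 8.38 on the Rec-1 mock arrays and 7.12 and 6.52 on the inhibitor arrays, 7.33 and 7.31 on the SP-49 mock arrays and 5.79 and 5.75 on the inhibitor arrays and 9.92 and 9.72 on the Mino mock arrays and 9.86 and 10.04 on the inhibitor arrays, and its part in the chaperone changes was not tested. The 6 B-cell genes measured read between 3.71 and 11.33. Of these, CD79B (1.06, adjusted p 0.000792) and MS4A1 (0.51, adjusted p 0.04) rose in Rec-1. Differences there were positive for 3 of the 6 and negative for the other 3, down to -0.41, with none called lower. The sum of the 6 log2 values in Rec-1 was 47.5 and 47.9 on the mock arrays and 48.7 and 48.8 on the inhibitor arrays. In SP-49 and Mino none of the 6 passed. The 27 markers of other cell types (T and NK cells, myeloid cells, stroma, epithelium) stayed at or below 4.81. CD3D, a T-cell gene at 4.81 and 4.79 on the Rec-1 mock arrays and 4.03 and 4.3 on the inhibitor arrays, was the 1 of those 27 that passed the test in Rec-1. In SP-49 it was CDH1, an epithelial gene, at 3.99 and 3.13 on the mock arrays and 1.84 and 1.82 on the inhibitor arrays (-1.73, adjusted p 0.0207). The sum of the 27 log2 values was 55.1 to 56.1 on the Rec-1 mock arrays and 53.5 to 53.9 on the inhibitor arrays, 50.1 to 50.5 and 49.6 to 50.3 in SP-49, and 51.5 to 51.7 and 52.7 on both in Mino. The part of these markers in the results was not tested.

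In Rec-1, 18 of the 41 measured chaperone genes were lower with inhibitor and none higher. Adjusted p-values are those of limma, corrected by the Benjamini-Hochberg method over all 19775 genes, with a threshold of 0.05. Over all genes 3.62% were called lower (715) and 2.15% higher (426) in Rec-1. After quantile normalization was applied again the split was 600 and 657, with 16 members lower and none higher. The members were mostly bright, with 36 of the 41 in the top 10% of probe sets by mean level. With dim genes left out, 5.19% of the 14398 genes kept were called lower, and 18 members. The part of brightness in these counts was not tested. The median change of the members was -0.46, beside 0.01 over all genes, and 37 of 41 differences were negative. For 36 members the 2 inhibitor arrays were both under the 2 mock arrays, an arrangement seen in 22.3% of all genes, and above them for HSPB1 alone, an arrangement seen in 22.9%. The largest difference was that of the HSP90 cochaperone FKBP4. All 6 mitochondrial members passed, a group put together after the values had been seen. Seen array by array, the median member was 0.43 below the mock mean on inhibitor replicate 1 of Rec-1 and 0.54 below it on replicate 2, with 37 and 38 of 41 members below, while the median of all genes was 0.01 and 0.00.

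Each of the 12 arrays was left out in turn. The Rec-1 count was lowest without either of its mock arrays, where fewer of all genes were called lower as well. The median change of the members in Rec-1 was -0.47 without mock replicate 1 and -0.46 without mock replicate 2. It was -0.54 without inhibitor replicate 1 and -0.43 without inhibitor replicate 2. FKBP4, GRPEL1, HSPA9, TRAP1, DNAJC2, HSP90AB1 and DNAJA3 were the 7 that passed in each of these 12 fits, and the other 11 were lost in 1 or more. With the Rec-1 arrays fitted alone no member passed in limma, and 21 of all genes did. The difference between the 3' and 5' probe sets of GAPDH, a measure of RNA integrity, was 0.41 and 0.37 on the Rec-1 mock arrays and 0.59 and 0.49 on the inhibitor arrays, and in Mino 0.26 and 0.25 without and 0.31 and 0.39 with inhibitor. That of ACTB was 2.0 and 1.83 on the Rec-1 mock arrays and 2.29 and 1.92 on the inhibitor arrays, which overlap. In Mino that of ACTB was 1.73 and 1.79 without and 2.0 and 1.94 with inhibitor. In SP-49 GAPDH gave 0.35 and 0.34 without and 0.35 and 0.44 with inhibitor. ACTB there gave 2.29 and 2.36 without and 2.3 and 2.16 with it. The GAPDH difference was thus higher on both inhibitor arrays in Rec-1, and both differences were in Mino. The part of RNA integrity was not tested. Over all probe sets, inhibitor replicate 2 of Rec-1 had the smallest SD of the 12 arrays (1.95, the others 2.0 to 2.05) and the highest median (2.06, the others 1.96 to 2.01). Array weights were lowest, 0.55, for the inhibitor arrays of Rec-1. When arrays were weighted 14 members passed there, all lower, beside 2.32% of all genes called lower.

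SP-49 and Mino had no member past the threshold. In SP-49, 17 of 41 members had an unadjusted p under 0.05 in limma, beside 8.87% of all genes. The median change there was -0.22 beside -0.02 over all genes, 37 of 41 differences were negative, and 0.172% of all genes were called lower and 0.0202% higher. In SP-49 the 2 inhibitor arrays were both under the mock arrays for 29 members, beside 24.4% of all genes, and above for HSF1 and HSPB1, beside 18.1%. With a variance prior that follows intensity and resists outliers, 7 members passed in SP-49, all lower, beside 0.834% of all genes, namely CCT4, CCT5, CCT8, DNAJC2, GRPEL1, HSP90AB1 and HSPD1. In Mino, 0 of 41 had an unadjusted p under 0.05, beside 4.9% of all genes, the median change was 0.02, 17 differences were negative and 24 positive, and 0% of all genes were called in limma. Mino inhibitor arrays lay below the mock arrays for 2 members and above for 10, beside 17.0% and 16.2% of all genes. The panels of changes by line show these 3 patterns gene by gene.

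**Figure D1:**
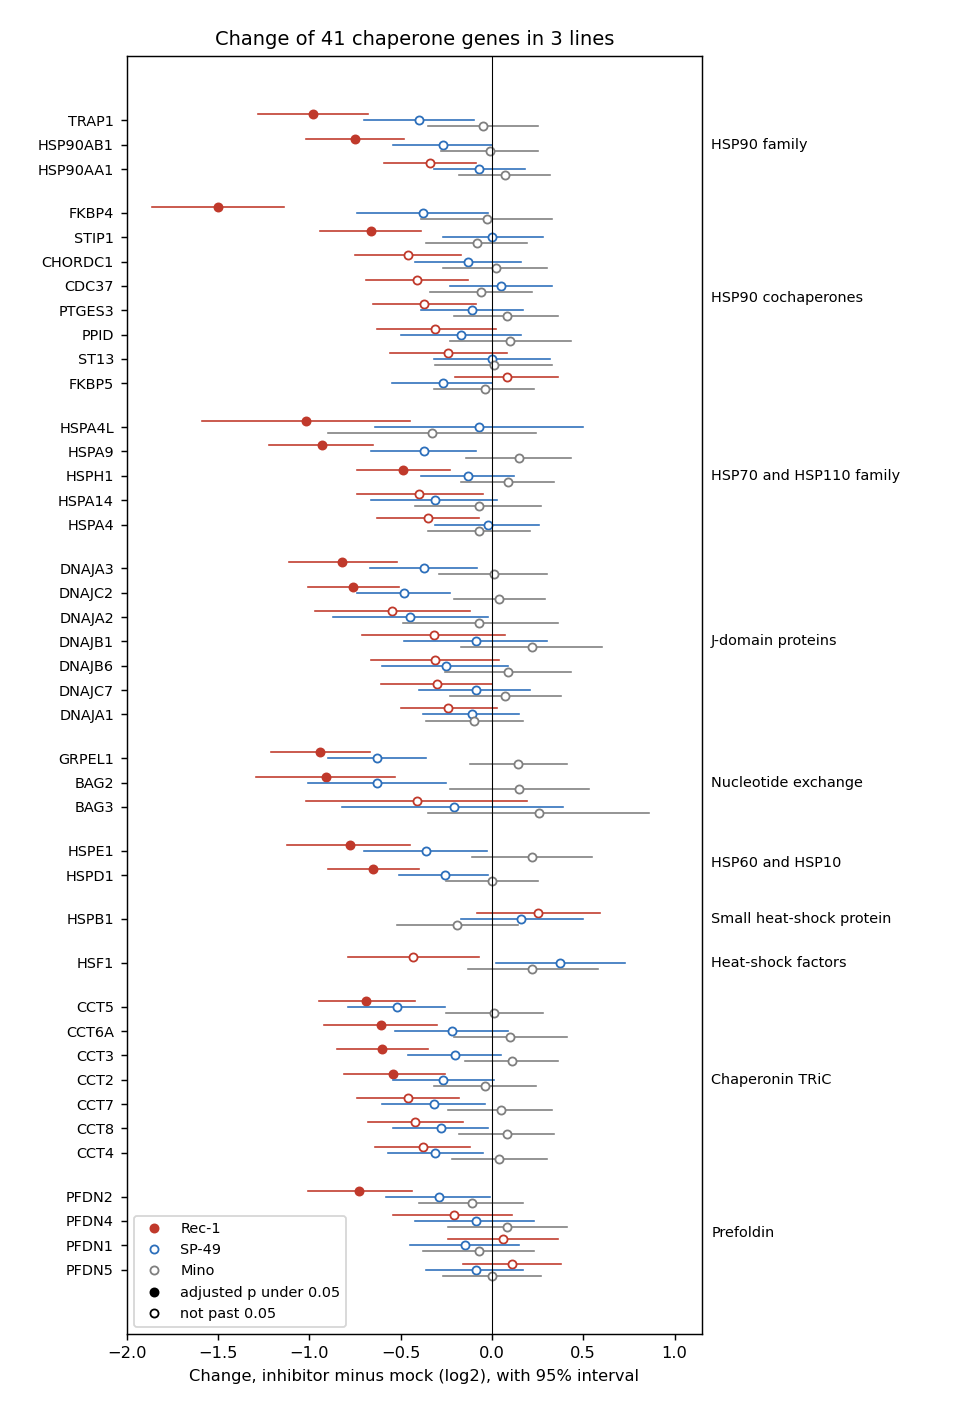
Change with the inhibitor (log2, inhibitor minus mock, horizontal axis) of the 41 measured chaperone genes, grouped by role, in Rec-1, SP-49 and Mino. Points are limma estimates with 95% intervals for single genes, and filled points are those with an adjusted p under 0.05. Filled points are found in Rec-1 alone, where 37 of 41 estimates lie left of 0, while the Mino estimates lie between -0.33 and 0.26.

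Of the HSP90 family, TRAP1 and HSP90AB1 fell in Rec-1 and HSP90AA1 did not pass. HSP90AB1, the constitutive cytosolic HSP90, read 10.83 and 10.79 on the Rec-1 mock arrays and 9.98 and 10.15 on the inhibitor arrays. The groups did not overlap, and it fell by 0.75 (95% interval -1.02 to -0.48), a factor of 1.68, with an adjusted p of 0.00466. Its levels were 10.35 and 10.44 without and 10.06 and 10.19 with inhibitor in SP-49, and 10.55 and 10.46 without and 10.49 and 10.49 with it in Mino. The Mino arrays overlapped and the SP-49 inhibitor arrays lay below the mock arrays, with a difference of -0.27 (adjusted p 0.556). HSP90AA1, the stress-inducible cytosolic HSP90, read 11.52 and 11.49 on the Rec-1 mock arrays and 11.21 and 11.12 on the inhibitor arrays. Its groups did not overlap either, but the difference of -0.34 (-0.59 to -0.09) had an adjusted p of 0.123. Its levels were 11.83 and 11.79 without and 11.73 and 11.75 with inhibitor in SP-49, and 11.44 and 11.33 without and 11.46 and 11.45 with it in Mino. The inhibitor arrays lay just below the mock arrays in SP-49 and just above them in Mino.

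The probe sets of the cytosolic HSP90 genes differed in how far they agreed. The 3 probe sets of HSP90AB1 gave differences of -0.75, -0.75 and -0.74 in Rec-1. For HSP90AA1 the 4 probe sets gave -0.28, -0.56, -0.34 and -0.17, and the second of these passed over all probe sets with an adjusted p of 0.0266. HSP90AA1 and HSP90AB1 are close paralogs, and whether their probe sets read each other's RNA was not tested. Among all measured members, 20 of the probe sets taken had names ending in _s_at and 3 in _x_at, classes of the array design whose probes can match more than 1 transcript.

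Heat-shock factor binds inverted repeats of nGAAn, and promoters of HSP90AB1 and DNAJB1 are shown as members that carry such repeats. GAANNTTC and TTCNNGAA, which can overlap each other and each read the same on both strands, were searched in the 250 bases before each RefSeq start (GRCh38.p14), and CACGTG, the site bound by MYC and related factors, was searched with them. The HSP90AB1 entry shown is the most downstream of its RefSeq starts and held both forms in a pair of places, and the DNAJB1 entry held GAANNTTC 77 and 47 bases before the start. The other RefSeq entries of HSP90AB1 and of DNAJB1 held none of these motifs. Capitals mark the matches, and both entries shown were chosen after their matches were seen.
HSP90AB1, chr6:44247693-44247942, plus strand: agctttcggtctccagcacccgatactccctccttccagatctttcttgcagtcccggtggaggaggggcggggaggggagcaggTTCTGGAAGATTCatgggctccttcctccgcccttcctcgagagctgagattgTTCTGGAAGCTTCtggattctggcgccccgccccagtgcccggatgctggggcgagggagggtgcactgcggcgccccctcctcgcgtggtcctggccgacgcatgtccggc
DNAJB1, chr19:14518398-14518647, minus strand: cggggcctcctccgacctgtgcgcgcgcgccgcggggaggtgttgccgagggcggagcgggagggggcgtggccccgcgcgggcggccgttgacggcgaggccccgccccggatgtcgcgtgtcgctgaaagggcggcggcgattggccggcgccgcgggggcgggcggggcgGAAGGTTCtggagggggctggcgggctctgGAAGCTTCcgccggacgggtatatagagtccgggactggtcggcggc

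GAANNTTC was present in 10 of the 47 promoter entries of measured members (21.3%) and TTCNNGAA in 6 (12.8%), beside 5.78% and 6.62% of all 35116 RefSeq entries of this length. A promoter entry was found for 34 of the 41 measured members. Among members called lower in Rec-1, 4 of 21 entries held GAANNTTC (19.0%), and among those not called 6 of 26 did (23.1%). A match is a run of letters and no evidence of binding, and genes with several starts contribute several entries.

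FKBP4 stood out among the HSP90 cochaperones. FKBP4 (FKBP52), an immunophilin that binds HSP90 in steroid receptor complexes, read 6.43 and 6.01 on the Rec-1 mock arrays and 4.88 and 4.55 on the inhibitor arrays. The groups were more than 1 apart, and it fell by 1.5 (-1.86 to -1.14) in Rec-1, a factor of 2.84, with an adjusted p of 0.000624. A second bright probe set gave -1.53, and the 2 dim ones -0.02 and -0.07, so that their mean gave -0.78 (adjusted p 0.00291). Its levels were 6.93 and 7.05 without and 6.57 and 6.65 with inhibitor in SP-49, and 7.3 and 7.45 without and 7.31 and 7.38 with it in Mino. In SP-49 the arrays did not overlap and the difference was -0.38 (-0.74 to -0.02, adjusted p 0.531), and in Mino they overlapped.

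FKBP5 (FKBP51), a paralog of FKBP4 that has the opposite effect on the glucocorticoid receptor, read 8.88 and 8.71 on the Rec-1 mock arrays and 8.9 and 8.84 on the inhibitor arrays. These groups overlapped, and the difference was 0.08 (-0.20 to 0.36, adjusted p 0.802). Its other probe sets gave -0.49 and -0.14, so the sign depended on the probe set. Levels of FKBP5 were 9.46 and 9.42 without and 9.24 and 9.1 with inhibitor in SP-49, and 9.24 and 9.37 without and 9.2 and 9.32 with it in Mino. STIP1 (HOP), which bridges HSP70 and HSP90, read 8.03 and 7.97 on the Rec-1 mock arrays and 7.3 and 7.38 on the inhibitor arrays, with no overlap. It fell by 0.66 (adjusted p 0.00994, a factor of 1.58), but the adjusted p was 0.0825 without mock replicate 1 and 0.0574 without mock replicate 2. STIP1 levels were 7.26 and 7.16 without and 7.2 and 7.23 with inhibitor in SP-49, and 7.04 and 7.25 without and 7.12 and 7.0 with it in Mino, and the SP-49 groups overlapped with a difference of 0.00.

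The remaining 5 cochaperones measured did not pass in Rec-1. The differences were -0.46 for CHORDC1, a zinc-binding HSP90 partner, -0.41 for CDC37, which brings kinases to HSP90, and -0.37 for PTGES3, the p23 cochaperone. They were -0.31 for PPID, the immunophilin CYP40, and -0.24 for ST13, the HSP70-interacting protein HIP. Their adjusted p-values lay between 0.0686 for CHORDC1 and 0.413 for ST13. For all 5 both inhibitor arrays were below both mock arrays, an arrangement seen in 22.3% of all genes.

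Each mitochondrial chaperone in the list fell in Rec-1, where 12 of the other 35 members and 3.62% of all genes did. The 6 are TRAP1, HSPA9, DNAJA3, GRPEL1, HSPD1 and HSPE1. They were put together after their values had been seen, so the contrast with the other 35 lends no separate support. Their differences ran from -0.98 to -0.65 with a median of -0.87, beside -0.41 for the other 35. In SP-49 the same 6 had a median of -0.37 with none called, and in Mino 0.08.

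TRAP1, the mitochondrial HSP90, read 7.08 and 7.06 on the Rec-1 mock arrays and 6.19 and 5.99 on the inhibitor arrays. It fell by 0.98 (-1.28 to -0.68, a factor of 1.97, adjusted p 0.00215), or by 0.57 (adjusted p 0.00777) with the mean of its probe sets. Its levels were 7.21 and 7.24 without and 6.9 and 6.76 with inhibitor in SP-49, and 8.38 and 8.54 without and 8.29 and 8.54 with it in Mino. TRAP1 arrays did not overlap in Rec-1 or SP-49 and did in Mino. HSPA9 (mortalin), the mitochondrial HSP70 that pulls proteins in through the inner membrane, read 8.38 and 8.31 on the Rec-1 mock arrays and 7.36 and 7.47 on the inhibitor arrays. It fell by 0.93 (-1.22 to -0.65, a factor of 1.91, adjusted p 0.00208), and its 2 other bright probe sets gave -1.0 and -0.93. HSPA9 levels were 7.88 and 7.87 without and 7.64 and 7.37 with inhibitor in SP-49, and 8.12 and 8.09 without and 8.19 and 8.32 with it in Mino. In SP-49 the inhibitor arrays were below the mock arrays and in Mino above them.

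GRPEL1, the nucleotide exchange factor of HSPA9, read 7.46 and 7.46 on the Rec-1 mock arrays and 6.47 and 6.57 on the inhibitor arrays. It fell by 0.94 (-1.21 to -0.67, a factor of 1.92, adjusted p 0.00139). Levels of GRPEL1 were 6.38 and 6.43 without and 5.88 and 5.66 with inhibitor in SP-49, and 7.02 and 6.96 without and 7.11 and 7.16 with it in Mino. Its SP-49 difference of -0.63 (-0.90 to -0.36) had the smallest adjusted p of any member in that line, 0.0837, and with array weights it passed at 0.0322. DNAJA3 (TID1), the J-domain partner of HSPA9, read 6.78 and 6.82 on the Rec-1 mock arrays and 6.15 and 5.82 on the inhibitor arrays. It fell by 0.82 (-1.11 to -0.52, a factor of 1.76, adjusted p 0.00484) and its levels were 7.33 and 7.26 without and 6.98 and 6.86 with inhibitor in SP-49, and 7.07 and 7.05 without and 7.05 and 7.09 with it in Mino. HSPA9, DNAJA3 and GRPEL1 were thus each lower on both inhibitor arrays of Rec-1, an arrangement seen in 22.3% of all genes.

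HSPD1 (HSP60), the chaperonin of the mitochondrial matrix, read 10.98 and 10.9 on the Rec-1 mock arrays and 10.28 and 10.3 on the inhibitor arrays. It fell by 0.65 (-0.90 to -0.40, a factor of 1.57, adjusted p 0.0064), or 0.0654 without mock replicate 1. Levels of HSPD1 were 11.15 and 11.14 without and 10.88 and 10.89 with inhibitor in SP-49, and 11.26 and 11.33 without and 11.32 and 11.26 with it in Mino. Its arrays were tight within every group. HSPE1 (HSP10), the lid of the HSPD1 ring, read 9.37 and 9.19 on the Rec-1 mock arrays and 8.64 and 8.36 on the inhibitor arrays. It fell by 0.78 (-1.12 to -0.45, a factor of 1.72, adjusted p 0.012), or 0.107 without mock replicate 1 and 0.0719 without inhibitor replicate 2. HSPE1 levels were 9.57 and 9.67 without and 9.16 and 9.36 with inhibitor in SP-49, and 9.42 and 9.2 without and 9.63 and 9.43 with it in Mino. In Mino both inhibitor arrays of HSPE1 lay above both mock arrays, the reverse of Rec-1 and SP-49, with a difference of 0.22 (adjusted p 1.0).

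HSPD1 and HSPE1 lie head to head on chromosome 2 and their promoter windows overlap. The promoters of HSPA9 and HSPE1 each held CACGTG close to the start, 19 and 22 bases before it, and the TRAP1 promoter held none of the 3 motifs. HSPA9 and TRAP1 were those with an entry among the 4 members with the smallest adjusted p in Rec-1, and HSPE1 was added after its match was seen. Capitals mark CACGTG.
HSPA9, chr5:138575402-138575651, minus strand: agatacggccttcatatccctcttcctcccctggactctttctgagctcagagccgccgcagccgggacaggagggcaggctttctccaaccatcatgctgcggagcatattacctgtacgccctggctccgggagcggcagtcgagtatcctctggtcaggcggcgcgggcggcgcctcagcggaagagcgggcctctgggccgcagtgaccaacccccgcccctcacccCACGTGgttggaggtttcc
HSPE1, chr2:197500129-197500378, plus strand: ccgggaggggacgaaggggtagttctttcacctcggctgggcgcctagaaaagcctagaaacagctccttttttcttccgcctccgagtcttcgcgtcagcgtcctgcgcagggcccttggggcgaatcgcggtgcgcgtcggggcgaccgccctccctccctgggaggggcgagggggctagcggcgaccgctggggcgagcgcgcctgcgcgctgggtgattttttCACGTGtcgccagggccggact
TRAP1, chr16:3717525-3717774, minus strand: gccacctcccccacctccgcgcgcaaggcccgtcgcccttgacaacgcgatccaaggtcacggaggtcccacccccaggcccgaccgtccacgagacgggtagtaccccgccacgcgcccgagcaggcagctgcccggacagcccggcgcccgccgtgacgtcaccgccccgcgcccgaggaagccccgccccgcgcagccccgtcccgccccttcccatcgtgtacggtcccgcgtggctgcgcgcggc

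CACGTG was found in 4 of the 47 entries of measured members (8.51%), beside 6.34% of all RefSeq entries and 7.38% of entries of genes on these arrays. The 4 were HSPA9, HSPE1, the HSPD1 entry 88 bases before its start and FKBP5 227 bases before its start, and the HSPD1 and HSPE1 matches are 1 and the same site. Members called lower in Rec-1 held it in 3 of 21 entries (14.3%), with the shared site counted for both HSPD1 and HSPE1. Those not called held it in 1 of 26 (3.85%), and the difference was not tested.

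**Figure D2:**
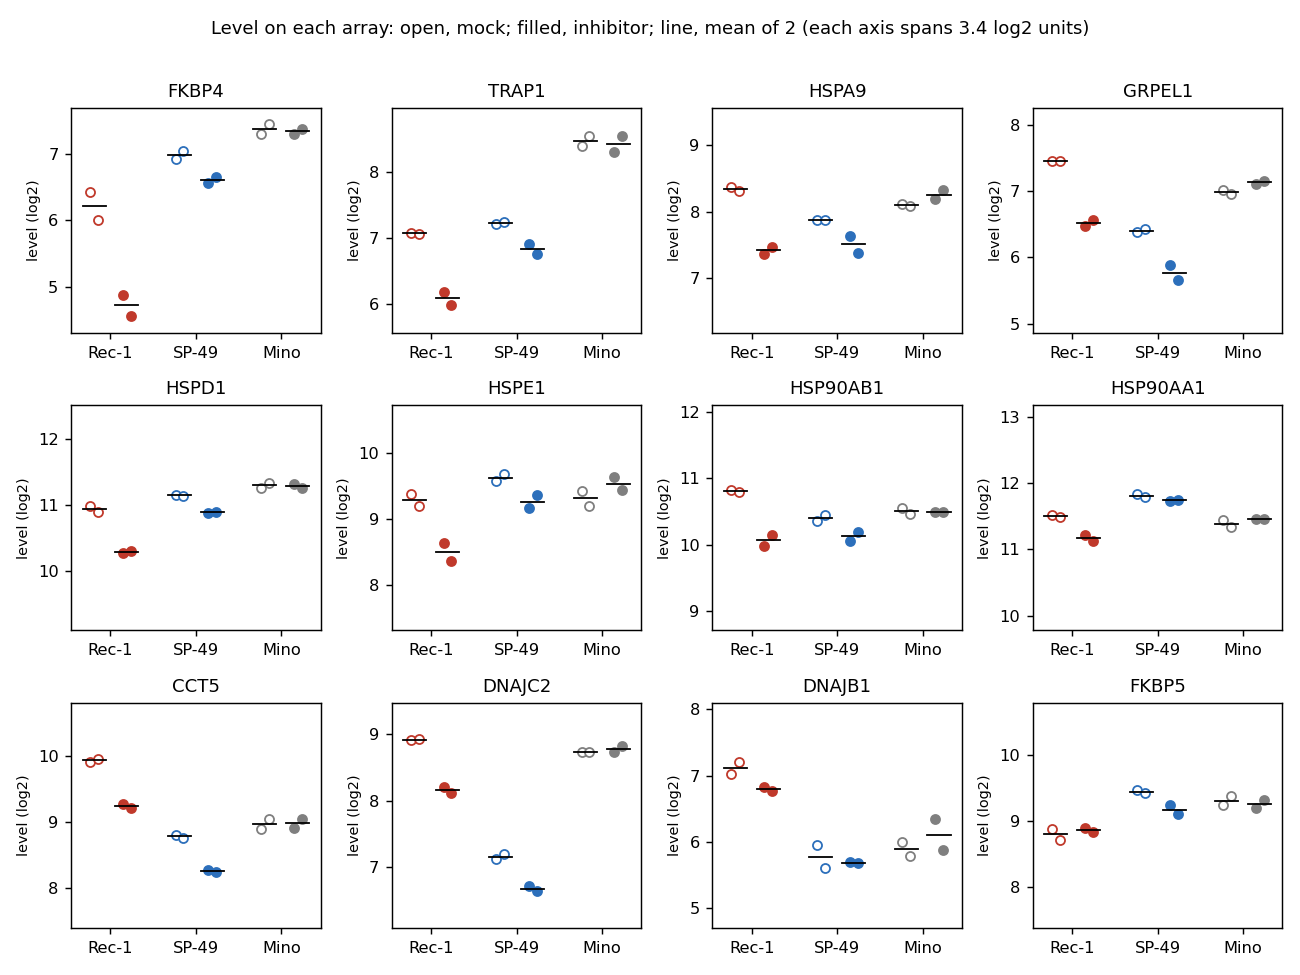
Level (log2) on each array for 12 chaperone genes in Rec-1, SP-49 and Mino, open circles for mock, filled circles for inhibitor and lines for the mean of the 2 arrays, each axis spanning 3.4 log2 units. FKBP4 in Rec-1 goes from 6.43 and 6.01 to 4.88 and 4.55, while its Mino arrays all lie between 7.3 and 7.45.

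Of the 5 HSP70 and HSP110 members measured, HSPA9, HSPH1 and HSPA4L passed in Rec-1, beside 3.62% of all genes called lower. All 5 had both inhibitor arrays below both mock arrays, an arrangement seen in 22.3% of all genes. HSPH1 (HSP105), an HSP110 that resets HSP70, read 8.63 and 8.54 on the Rec-1 mock arrays and 8.16 and 8.04 on the inhibitor arrays. It fell by 0.49 (-0.74 to -0.23, a factor of 1.40, adjusted p 0.0331), and the adjusted p was 0.182 without mock replicate 1, 0.115 without mock replicate 2 and 0.138 without inhibitor replicate 2. It was also lost without either inhibitor array of Mino (0.0509) or either mock array of SP-49 (0.0581), with array weights (0.077) and with the replicate block (0.0705). HSPH1 levels were 9.56 and 9.49 without and 9.42 and 9.37 with inhibitor in SP-49, and 8.82 and 8.75 without and 8.89 and 8.85 with it in Mino. The change in HSPH1 was small and close to the threshold. HSPA4L, another HSP110, was called lower with a difference of -1.02 (-1.59 to -0.45, adjusted p 0.0431), from 3.18 and 2.08 to 1.68 and 1.54. It is the 1 member whose mean, 1.68, was under that of the median probe set, 2.0, and the difference was -0.47 (adjusted p 0.167) without mock replicate 1. Of 12 fits with an array omitted, 11 lost the HSPA4L call, all but that without mock replicate 2 of Rec-1, and with array weights (adjusted p 0.112). HSPA4 and HSPA14, an HSP110 and a ribosome-bound HSP70, did not pass, with differences of -0.35 and -0.40.

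Of the 7 J-domain proteins, DNAJA3 and DNAJC2 fell in Rec-1, beside 3.62% of all genes called lower. All 7 had both inhibitor arrays below the mock arrays, an arrangement seen in 22.3% of all genes. DNAJC2 (MPP11, zuotin), which works with HSPA14 at the ribosome exit, read 8.91 and 8.93 on the Rec-1 mock arrays and 8.2 and 8.11 on the inhibitor arrays. It fell by 0.76 (-1.01 to -0.51, a factor of 1.69, adjusted p 0.00333), or by 0.45 (adjusted p 0.0487) with the mean of its probe sets. Levels were 7.12 and 7.19 without and 6.71 and 6.63 with inhibitor in SP-49, and 8.74 and 8.73 without and 8.73 and 8.82 with it in Mino. The SP-49 arrays did not overlap, with a difference of -0.48 (adjusted p 0.168), and the Mino arrays did. DNAJB1 (HSP40), the best known heat-inducible J-domain protein, read 7.02 and 7.2 on the Rec-1 mock arrays and 6.82 and 6.76 on the inhibitor arrays. The difference of -0.32 (-0.71 to 0.07) had an adjusted p of 0.366. Its levels were 5.95 and 5.6 without and 5.69 and 5.68 with inhibitor in SP-49, and 6.0 and 5.78 without and 6.34 and 5.87 with it in Mino. DNAJA1, DNAJA2, DNAJB6 and DNAJC7, partners of cytosolic HSP70, had differences of -0.24, -0.55, -0.31 and -0.30 and did not pass.

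Of the nucleotide exchange factors of the BAG family measured, BAG2 fell in Rec-1 and BAG3 did not pass, and the difference between them was not tested. BAG2, which also restrains the ubiquitin ligase CHIP, read 6.75 and 6.65 on the Rec-1 mock arrays and 5.9 and 5.69 on the inhibitor arrays. It fell by 0.91 (-1.29 to -0.53, a factor of 1.87, adjusted p 0.0112), but the mean of its 3 probe sets, of which 2 were dim, gave -0.40 (adjusted p 0.0979). Without mock replicate 1, mock replicate 2 or inhibitor replicate 2 the adjusted p was 0.09, 0.0577 and 0.0628. BAG2 levels were 5.85 and 6.05 without and 5.6 and 5.05 with inhibitor in SP-49, and 6.37 and 6.42 without and 6.59 and 6.5 with it in Mino. In SP-49 its difference was -0.63 (-1.01 to -0.25, adjusted p 0.238). BAG3, an HSF1 target induced by stress, read 4.73 and 5.54 on the Rec-1 mock arrays and 5.04 and 4.41 on the inhibitor arrays. Its groups overlapped, the SD of its 2 mock arrays was 0.58, and the difference of -0.41 (-1.02 to 0.19) had an adjusted p of 0.475. BAG3 levels were 5.35 and 5.1 without and 5.17 and 4.85 with inhibitor in SP-49, and 5.35 and 4.91 without and 5.47 and 5.3 with it in Mino.

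All 7 measured TRiC subunits were lower on both inhibitor arrays of Rec-1, an arrangement seen in 22.3% of all genes. Of them 4 passed, beside 3.62% of all genes called lower. CCT5 read 9.91 and 9.95 on the Rec-1 mock arrays and 9.27 and 9.21 on the inhibitor arrays. It fell by 0.69 (-0.95 to -0.42, a factor of 1.61, adjusted p 0.00646), or 0.0574 without mock replicate 2. Its levels were 8.8 and 8.76 without and 8.27 and 8.25 with inhibitor in SP-49, and 8.89 and 9.05 without and 8.91 and 9.05 with it in Mino. CCT5 arrays were also apart in SP-49, where the difference was -0.52 (-0.79 to -0.26, adjusted p 0.134). CCT3, CCT6A and CCT2 fell by 0.60, 0.61 and 0.54, with adjusted p-values of 0.0114, 0.0289 and 0.0322. Each of these 3 was lost without mock replicate 1 (0.0636, 0.162 and 0.168) and without mock replicate 2 (0.0907, 0.112 and 0.125). CCT6A was lost too without inhibitor replicate 1 of Rec-1 (0.0934) and either mock array of SP-49 (0.0526), and CCT2 without inhibitor replicate 2 of Rec-1 (0.134). Renormalization, array weights and the replicate block also ended the calls of CCT6A (0.0501, 0.0535 and 0.0589) and CCT2 (0.0624, 0.0827 and 0.0731). CCT7, CCT8 and CCT4 had differences of -0.46, -0.42 and -0.38 (adjusted p 0.062, 0.0651 and 0.0942). In SP-49 all 7 were below as well, beside 24.4% of all genes. Their differences there ran from -0.52 to -0.20 with none called, and in Mino the 7 lay between -0.04 and 0.11.

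Of the prefoldin subunits, PFDN2 fell in Rec-1 and the other 3 measured did not pass. PFDN2, a beta-type subunit, read 7.47 and 7.48 on the Rec-1 mock arrays and 6.83 and 6.67 on the inhibitor arrays. It fell by 0.73 (-1.01 to -0.44, a factor of 1.66, adjusted p 0.00745), or 0.0552 and 0.0586 without mock replicates 1 and 2. PFDN2 levels were 7.26 and 7.12 without and 6.93 and 6.88 with inhibitor in SP-49, and 7.22 and 7.39 without and 7.1 and 7.28 with it in Mino. PFDN4, PFDN5 and PFDN1 had differences of -0.21, 0.11 and 0.06 in Rec-1, and the median of the 4 was -0.08. The difference between prefoldin and TRiC was not tested.

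Neither HSF1 nor HSPB1 passed in any line. HSF1 read 5.37 and 5.65 on the Rec-1 mock arrays and 5.09 and 5.08 on the inhibitor arrays, and the difference of -0.43 (-0.79 to -0.07) had an adjusted p of 0.17. Its levels were 3.82 and 4.18 without and 4.38 and 4.37 with inhibitor in SP-49, and 4.69 and 4.87 without and 4.86 and 5.14 with it in Mino. In SP-49 HSF1 was the other way, above on both inhibitor arrays, with a difference of 0.37 (0.02 to 0.73, adjusted p 0.531). HSPB1 (HSP27), a small heat-shock protein that keeps unfolded proteins soluble, read 2.71 and 2.72 on the Rec-1 mock arrays and 2.72 and 3.21 on the inhibitor arrays. The difference of 0.25 (adjusted p 0.417) rested on inhibitor replicate 2, since it was 0.01 without that array and 0.50 without inhibitor replicate 1, where it passed the threshold.

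Other probe sets of the 18 genes called lower in Rec-1 mostly pointed the same way. There were 25 of them, of which 23 had negative differences, 13 passed as lower and 0 as higher over all probe sets in limma. All 17 that were brighter than the median probe set were negative, and the other 8 were dimmer than it. The 18 genes were picked as lower on these same arrays, so their other probe sets lend no separate support.

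The responses of the lines were then set against each other by testing the differences themselves. Between Rec-1 and Mino, 6 members had a more negative response in Rec-1 and none a more positive one, where 0.87% of all genes were called lower and 0.561% higher. They were FKBP4, GRPEL1, HSPA9, DNAJC2, TRAP1 and HSPE1. Of the 6, 4 are mitochondrial, a grouping made after the values had been seen. FKBP4 differed by -1.47 (-1.98 to -0.96, adjusted p 0.0143), GRPEL1 by -1.08 (-1.46 to -0.70, adjusted p 0.0148) and HSPA9 by -1.08 (adjusted p 0.0184). DNAJC2 differed by -0.80 (adjusted p 0.0404), TRAP1 by -0.93 (0.0416) and HSPE1 by -1.0 (0.0483). When probe sets were averaged per gene, FKBP4 came to -0.73 (adjusted p 0.0552), DNAJC2 to -0.53 (0.158) and TRAP1 to -0.54 (0.0987). With the replicate block FKBP4 alone passed. Leaving out 1 array in turn gave counts from 0 to 8, with 0 without either inhibitor array of Mino or without mock replicate 1 of Rec-1, and FKBP4, GRPEL1 and HSPA9 were lost in 4, 5 and 6 of 12 such fits and the other 3 in 11 of 12.

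For FKBP4 the losses came without mock replicate 1 of Mino (adjusted p 0.0561), inhibitor replicate 1 or 2 of Mino (0.0558 and 0.071) or mock replicate 1 of Rec-1 (0.0659). GRPEL1 was lost without mock replicate 2 of Mino (0.0554), inhibitor replicate 1 or 2 of Mino (0.0581 and 0.0714) or either mock array of Rec-1 (0.0688 and 0.0649). HSPA9 was lost without any single array of Mino or either mock array of Rec-1 (0.0575 to 0.0885). DNAJC2, TRAP1 and HSPE1 passed in 1 such fit each, that without inhibitor replicate 1 of Rec-1. The Mino levels of these genes, given above, moved by 0.22 or less in group mean.

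Between Rec-1 and SP-49 no member passed, and 0.556% of all genes were called in either direction. An unadjusted p under 0.05 was found for 12 of 41 members, beside 11.0% of all genes. The smallest adjusted p was that of FKBP4, 0.0666, for a difference of -1.13 (-1.63 to -0.62), or -0.56 (adjusted p 0.215) with the mean of its probe sets. STIP1 followed with -0.67 (-1.05 to -0.28, adjusted p 0.16) and HSF1 with -0.80 (-1.31 to -0.30, adjusted p 0.206). These 3 intervals lie below 0 one by one, but are not adjusted for the number of genes. With the intensity-dependent prior, 6 members passed, all with a more negative response in Rec-1, namely FKBP4, HSP90AA1, HSP90AB1, HSPA9, HSPD1 and STIP1. That prior also called more of all genes for the inhibitor effects in Rec-1 and SP-49. The share of all genes it called for this difference is not given here, so the count of members has no background beside it. FKBP4 passed without inhibitor replicate 1 of Rec-1, and HSPA4L without mock replicate 2 of Rec-1. Between SP-49 and Mino no member passed, and 0.0455% of all genes were called. There 6 of 41 had an unadjusted p under 0.05, beside 7.17% of all genes. GRPEL1, with -0.78, and DNAJC2 and CCT5, with -0.52 and -0.54, had the smallest adjusted p-values, 0.316, 0.51 and 0.51.

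Without inhibitor the 3 lines already differed in many of these genes. Between the mock arrays of Rec-1 and SP-49, 16 members were higher in Rec-1 and 10 lower, beside 13.1% and 15.8% of all genes. Between Rec-1 and Mino, 13 were higher in Rec-1 and 6 lower, beside 12.8% and 13.3%, and between SP-49 and Mino, 9 were higher in SP-49 and 8 lower, beside 13.9% and 11.8%. The last count, 17 in all, was 11 without mock replicate 1 of SP-49. Serum goes with the line for Mino, so line and serum cannot be told apart in comparisons with it.

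HSPB1 had the largest spread between lines of any member. Its mock levels were 7.97 and 8.02 in Mino, 5.90 and 5.89 in SP-49 and 2.71 and 2.72 in Rec-1. Rec-1 was lower than Mino by 5.28 on the log2 scale, a factor of 38.8 (adjusted p 7.26e-10). A level near 2.7 is above that of the median probe set, 2.0, but not far from it. Low values hold mostly background, so this factor may be understated. SP-49 minus Mino was -2.10 (adjusted p 1.29e-06), and Rec-1 minus SP-49 was -3.18 (adjusted p 4.03e-08). With inhibitor HSPB1 read 6.04 and 6.08 in SP-49 and 7.79 and 7.81 in Mino, so the order of the lines was kept.

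CHORDC1 was highest in Rec-1, at 9.35 and 9.2 without inhibitor. It read 7.88 and 7.87 in SP-49 and 7.26 and 7.26 in Mino, and Rec-1 was higher than Mino by 2.02 (a factor of 4.06, adjusted p 5.08e-07) and than SP-49 by 1.41 (adjusted p 7.53e-06). With inhibitor it read 8.9 and 8.74 in Rec-1, 7.8 and 7.68 in SP-49 and 7.39 and 7.16 in Mino. The CHORDC1 arrays of Rec-1 thus stayed above those of both other lines. DNAJC2 was low in SP-49, at 7.12 and 7.19, against 8.91 and 8.93 in Rec-1 and 8.74 and 8.73 in Mino. Rec-1 minus SP-49 was 1.76 (adjusted p 4.75e-07) and SP-49 minus Mino was -1.58 (adjusted p 1.38e-06).

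TRAP1 was highest in Mino, at 8.38 and 8.54, against 7.08 and 7.06 in Rec-1 and 7.21 and 7.24 in SP-49. Rec-1 minus Mino was -1.39 (adjusted p 1.49e-05) and SP-49 minus Mino was -1.23 (adjusted p 3.72e-05). HSF1 and DNAJB1 were both highest in Rec-1 by mock mean. Rec-1 exceeded SP-49 by 1.51 for HSF1 (adjusted p 2.32e-05) and by 1.34 for DNAJB1 (adjusted p 0.00011), and it exceeded Mino by 0.74 for HSF1 (adjusted p 0.00504) and by 1.22 for DNAJB1 (adjusted p 0.00027). DNAJA1, a J-domain protein of the cytosol, read 9.27 and 9.34 on the SP-49 mock arrays and 9.15 and 9.23 on the inhibitor arrays and 8.22 and 8.37 on the Mino mock arrays and 8.14 and 8.25 on the inhibitor arrays. Its SP-49 minus Mino mock difference was 1.01 (adjusted p 6.77e-05). DNAJA1 in Rec-1 read 9.1 and 9.08 without and 8.8 and 8.91 with inhibitor, nearer to SP-49 than to Mino. With the mean of probe sets several of these mock differences were smaller and still passed, with Rec-1 minus SP-49 at 0.68 for CHORDC1, 0.97 for DNAJC2 and 0.94 for HSF1. Rec-1 minus Mino then came to 1.06 for CHORDC1 and -0.70 for TRAP1, and SP-49 minus Mino to -0.75 for DNAJC2 and -0.66 for TRAP1. FKBP4, which fell most in Rec-1, was already lower there without inhibitor, by 1.16 on the log2 scale than in Mino (adjusted p 0.00024).

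**Figure D3:**
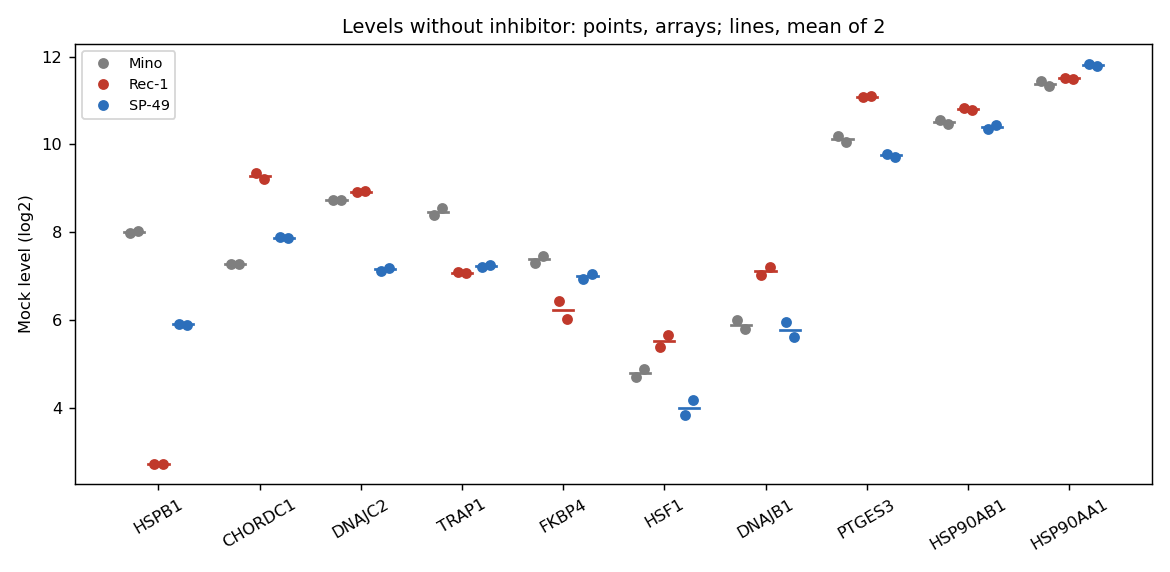
Level (log2) without inhibitor on each mock array of Mino, Rec-1 and SP-49 for 10 chaperone genes, with lines at the mean of 2 arrays. HSPB1 runs from 2.71 in Rec-1 to 8.02 in Mino, while the arrays of the cytosolic HSP90 genes lie within 1 log2 unit over the 3 lines.

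A wider list of 77 chaperone genes outside the 46 was set beside them, of which 71 were measured. It holds small heat-shock proteins, further J-domain proteins, endoplasmic reticulum chaperones, mitochondrial proteases and assembly factors. In Rec-1, 10 of the 71 fell and none rose, beside 3.62% and 2.15% of all genes, with a median of -0.15. The smallest adjusted p-values were those of RUVBL1, an ATPase of the R2TP complex that works with HSP90, TTC4, an HSP90 cochaperone, and CLPP and CLPX, the peptidase and the ATPase of the mitochondrial ClpXP protease. Their differences were -1.05 (adjusted p 0.00333), -0.79 (0.012), -0.64 (0.0152) and -0.71 (0.0221). In SP-49 and Mino none of the 71 passed in limma, where 7 and 1 had an unadjusted p under 0.05, beside 8.87% and 4.9% of all genes. The difference between Rec-1 and Mino was called lower for BAG1, an exchange factor of cytosolic HSP70, at -0.88 (adjusted p 0.0312), and for RUVBL1 at -1.08 (adjusted p 0.0439), and for no other of the 71, beside 0.87% of all genes. The group mean of BAG1 went from 7.6 to 7.11 in Rec-1 and from 5.95 to 6.34 in Mino. Its difference thus holds a rise in Mino as well as a fall in Rec-1. Of 9 mitochondrial genes in the wider list, 5 were among the 10 that fell in Rec-1, and the median of the 9 was -0.62. The 9 are CLPP, CLPX, CLPB, LONP1, DNAJC11, GRPEL2, DNLZ, HSCB and DNAJC19. They too were put together after the values had been seen, and so lend no separate support.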

How the data were processed

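RNA of 3 cell lines was measured on 12 arrays, 2 per group. The deposited values are log2 intensities of 54675 probe sets, per the submitters' processing notes made with RMA, with limma named as a further tool and no versions given. Their range, 0.58 to 12.78 (median 1.99), is that of logarithms to base 2. Low values hold mostly background, and a fall ending there is understated. Of the probe sets, 41097 named 1 gene, 1801 several and 11777 none in the annotation used here, and symbols were updated by gene number for 41043.

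Each gene was represented by its probe set with the highest mean, among those naming it alone, with no filter on low values. A model with 6 group means over all 12 arrays was fitted with limma 3.58.1 in R 4.3.3 (lmFit, eBayes, 6 residual and 5.22 prior degrees of freedom). Tests were two-sided and adjusted by Benjamini-Hochberg over 19775 genes within each contrast. Intervals of 95% are for single genes. Precision is limited by the number of arrays (the standard error of inhibitor minus mock was 0.164 in the median). The fit was tested on simulated data.

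The members and gene lists were chosen with earlier results of these data known. Genes given array by array were 11 measured members of a fixed set of 13, the 12 with the smallest adjusted p in Rec-1, those called in other lines, the 3 smallest in each difference between lines and the 4 largest mock differences in each pair of lines. The other members are given by their differences. Promoter sequences are from RefSeq (GRCh38.p14). The alternatives tried were the mean of probe sets, a filter on dim genes, renormalization, another variance prior, array weights, smaller fits, the replicate number as a block and leaving out arrays.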

Additional observations from a re-analysis of the deposited data

Results flagged for a closer look

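The response to the inhibitor differed between Rec-1 and Mino by an interaction contrast in limma for 6 members. The difference, Rec-1 minus Mino, was -1.47 for FKBP4, -1.08 for GRPEL1, -1.08 for HSPA9, -0.80 for DNAJC2, -0.93 for TRAP1 and -1.0 for HSPE1. In Mino itself the 6 changed by -0.05 to 0.22. When probe sets were averaged per gene, the difference was -0.73 for FKBP4 (adjusted p 0.0552), -0.53 for DNAJC2 (0.158) and -0.54 for TRAP1 (0.0987).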

How the results depend on the processing

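No call named above changed direction under an alternative. In Rec-1, array weights called 14 members and 2.32% of all genes lower, and a variance prior that follows intensity called 26 and 5.51%. The Rec-1 count of 18 lay between 14 and 26 under the 8 alternatives that fitted all 12 arrays, was 13 without the second inhibitor arrays of Rec-1 and SP-49, and was 0 when the Rec-1 arrays alone were fitted. It ranged from 8 to 19 when single arrays were left out, with 7 of the 18 kept each time. A variance prior that follows intensity gave 7 members in SP-49. It gave 6, 22 and 1 for the differences Rec-1 minus SP-49, Rec-1 minus Mino and SP-49 minus Mino. The same prior raised the calls over all genes, from 1141 to 1723 for the inhibitor effect in Rec-1 and from 38 to 208 in SP-49. Shares of all genes for the 3 differences under it are not given here, so those counts have no background beside them. Array weights gave 1 in SP-49 and 3 for Rec-1 minus Mino, which was also 3 without the second inhibitor arrays and 0 with only the arrays compared. Single arrays left out gave 0 to 8 for Rec-1 minus Mino, 0 to 1 for Rec-1 minus SP-49, and 11 to 18 for mock levels of SP-49 and Mino. The median change lay between -0.54 and -0.43 in Rec-1, -0.27 and -0.20 in SP-49 and 0.02 and 0.05 in Mino without single arrays, and was 0.04 in Mino after median centring. The cause of these shifts was not tested.

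With the replicate block, the Rec-1 count was 15 and that for Rec-1 minus Mino 1, and no other count of inhibitor effects moved. The labels' replicate numbers are shared between groups, but deviations of same-numbered arrays correlated at 0.094 in Rec-1, 0.046 in Mino and -0.011 in SP-49, so the numbers were not taken to pair arrays. Normalizing again by quantiles turned the split of all genes called in Rec-1 from 426 higher and 715 lower to 657 and 600, with 16 members lower and none higher.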
